A study of Ursus arctos with 12 samples.

Results

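Myokines are proteins that muscle makes and releases. The set described here held 9 transcripts, FNDC5, IL15, METRNL, APLN, BDNF, FGF21, GDF15, OSTN and VGF, found by gene symbol among the 30249 genes of the count table. All 9 symbols had a row, and together they took 6622 of 276837142 counted reads. The libraries came from vastus lateralis biopsies, a thigh muscle, of 6 free-ranging brown bears (Ursus arctos) aged 2 to 3 years. Each bear gave 1 library in February, during winter hibernation, and 1 in June of the same year, in its active period. The tests of winter against summer were paired by animal, save in the alternative fits without the bear. Season ranges, and ratios of reads pooled over a season, were not paired. Both groups were the same wild animals, and season was the labelled difference between them. Hibernation joins inactivity, fasting and a lowered body temperature, and these cannot be told apart in this design.

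Some myokines are released when muscle contracts and act on fat, bone, brain or the muscle itself. Others are stress signals that muscle makes little of at rest. A released protein acts through a receptor, often on another cell, so a transcript level in the muscle says nothing by itself of the amount released.

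Depth ran from 20191068 to 27283155 reads in the 6 summer libraries and from 16742406 to 32140160 in the 6 winter libraries. Levels are given as CPM, the reads of a gene per 1000000 reads of its library after TMM scaling, or as log2 CPM. A single read was worth 0.0326 to 0.0602 CPM, and a count of 0 allowed a level of up to 0.0977 to 0.181 CPM (3 reads), a limit that covers counting error only. CPM are not divided by transcript length, so levels are compared between seasons and not between genes. The muscle fibre markers took 119812 to 205465 CPM in summer and 135013 to 173039 in winter, with 8 of 10 listed in the table and MYH7 and MYH2 not matched by symbol. Behind this sum, single markers went both ways in the test across genes. ACTA1 and MB were lower in winter, by 0.91 and 1.02 on the log2 scale. TTN and NEB were higher, by 0.65 and 0.51, and the other 4 did not pass. The winter library of bear 1509 stood apart by its transcripts of nerve cells, described beside the members it touched. The summer library of bear 1316 stood apart by its adipocyte markers, which summed to 1396 CPM there and to 222 to 534 CPM in the other 11 libraries. CIDEC was at 1346 reads against 8 to 137 and ADIPOQ at 7291 against 135 to 2453. LIPE, at 420 reads against 91 to 692, and LEP, at 2 against 0 to 19, did not stand apart. Values without these bears stand beside several of the results they touch.

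Of the 9 transcripts, 5 had at least 30 reads over the 12 libraries and entered the test across genes, and the other 4 did not. IL15 was the member that rose in winter, by 0.79 on the log2 scale. FNDC5 and APLN fell, with log2 fold changes of −2.99 and −1.25. METRNL and BDNF did not pass the test, and OSTN, GDF15, VGF and FGF21 had from 2 to 14 reads in all. Among all 17290 genes tested, 40.8% passed (19.6% higher in winter and 21.2% lower), so 3 passing members of 5 tested is a description of a short list. The 5 log2 fold changes had a median of −0.79, and all tested genes a median of −0.01.

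**Figure D1:**
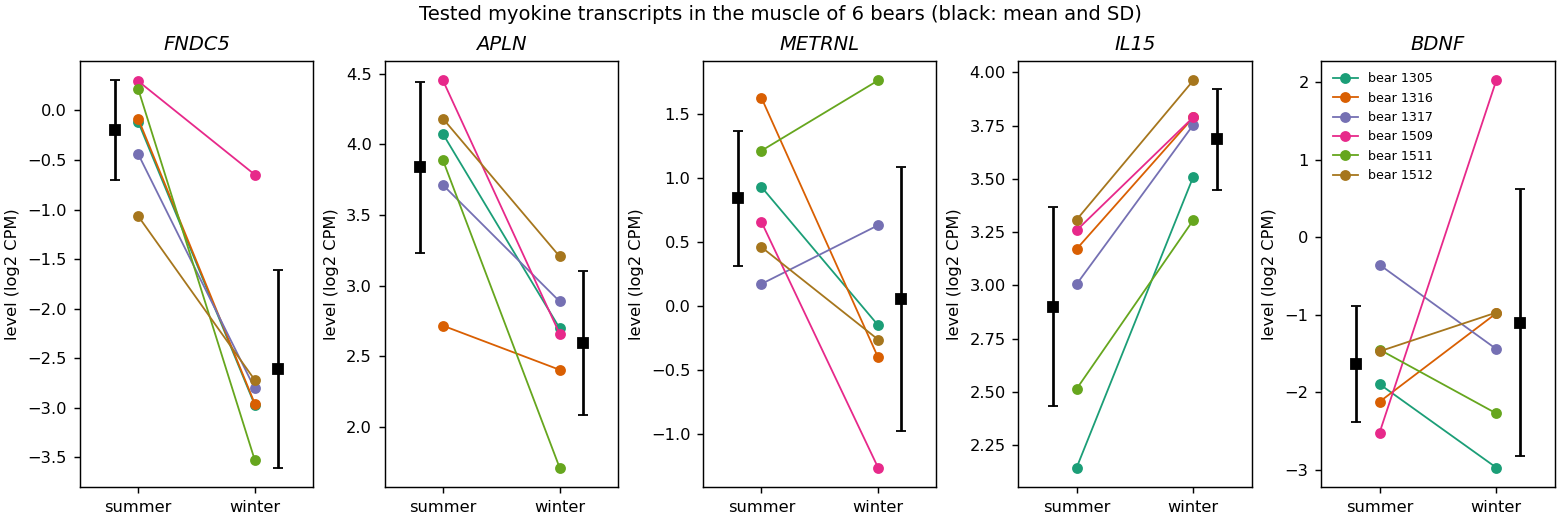
Level of each of the 5 tested members in log2 CPM (vertical axis) in summer and winter, with 1 line per bear and the mean ± SD of 6 bears beside each season. The lines of IL15 rise in all 6 bears and those of FNDC5 and APLN fall in all 6, while in BDNF the line of bear 1509 rises far above the others.

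FNDC5 encodes the membrane protein whose outer part is shed as irisin, a hormone linked to exercise that acts on fat and bone. Its reads ranged from 10 to 27 in the summer libraries (median 20.5) and from 0 to 10 in the winter libraries (median 1). On the scale of CPM, the lowest, median and highest values were 0.391, 0.848 and 1.14 in summer and 0, 0.0492 and 0.552 in winter. All 6 bears were lower in winter, and the seasons overlapped through a single library, that of bear 1509 in winter. Mean log2 CPM went from −0.20 ± 0.50 (SD, n = 6) to −2.60 ± 1.00 (SD, n = 6). The fitted log2 fold change was −2.99 (SE 0.57, 95% interval −4.25 to −1.74, adjusted p = 0.00203), which is 7.97-fold lower in winter.

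In the other 5 bears, winter FNDC5 was at 0, 1 or 2 reads, so the size of the fall was limited by counting. The winter library of bear 1509 held 10 of the 15 winter reads (66.7%). Without that bear, 93 summer reads stood against 5 winter reads. The seasons then did not overlap, at 0.391 to 1.08 CPM in summer and 0 to 0.0651 CPM in winter, and the log2 fold change was −3.88 (SE 0.53, adjusted p = 0.000392).

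METRNL encodes meteorin-like, a secreted factor of exercised muscle and fat. Reads ranged from 24 to 63 in summer (median 42) and from 6 to 55 in winter (median 21.5). In CPM, summer values ran from 1.04 through a median of 1.66 to 3.01, and winter values from 0.331 through 0.783 to 3.31. The winter range held the summer range within it, and both the lowest and the highest library of the set were winter ones. Winter was lower in 4 bears and higher in bears 1317 and 1511. The log2 fold change was −0.79 (SE 0.39, 95% interval −1.66 to 0.08, adjusted p = 0.134), which did not pass. The interval still holds a fall of 1.66 on the log2 scale. The highest summer value was that of bear 1316, in the library rich in adipocyte markers, whose part was not tested. Without that bear the log2 fold change was −0.50 (SE 0.40, adjusted p = 0.352).

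IL15 encodes interleukin 15, a cytokine that keeps lymphocytes alive and that muscle also makes. Reads ranged from 119 to 251 in summer (median 185) and from 163 to 476 in winter (median 263). Summer levels ran from 4.34 through a median of 8.43 to 9.82 CPM, and winter levels from 9.81 through 13.6 to 15.5 CPM. The seasons overlapped through a single pair of libraries, with bear 1511 in winter just below bear 1512 in summer. Mean log2 CPM went from 2.90 ± 0.47 to 3.69 ± 0.24 (SD, n = 6 each). The log2 fold change was 0.79 (SE 0.14, 95% interval 0.48 to 1.09, adjusted p = 0.00129). IL15 was higher in winter in 6 of 6 bears, by 1.45-fold to 2.61-fold within a bear.

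APLN encodes apelin, a peptide hormone that acts on blood vessels, heart and muscle. Its reads ranged from 136 to 497 in summer (median 414.5) and from 53 to 281 in winter (median 127). Summer levels ran from 6.49 through a median of 15.7 to 21.8 CPM, and winter levels from 3.19 through 6.32 to 9.15 CPM. The summer library of bear 1316 lay within the winter range, and the other 5 summer libraries lay above it. Mean log2 CPM went from 3.84 ± 0.60 to 2.60 ± 0.51 (SD, n = 6 each). The log2 fold change was −1.25 (SE 0.22, 95% interval −1.73 to −0.76, adjusted p = 0.00136). Without bear 1316 it was −1.42 (SE 0.21, adjusted p = 0.000978). APLN was lower in winter in 6 of 6 bears, by 1.25-fold in the least changed and 4.62-fold in the most changed.

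Endothelial marker transcripts were lower in winter as well, 6 of 8 by the test (75%, against 21.2% of all genes tested). Their summed level was 658 to 984 CPM in summer and 440 to 504 CPM in winter, with no overlap. Fibroblast markers were lower for 5 of 6 (83.3%), at 2194 to 6517 CPM summed in summer and 119 to 746 CPM in winter. Smooth muscle and pericyte markers were lower for 3 of 6 (50%), a count that ran from 2 to 4 under the alternatives of the closing section. They summed to 460 to 585 CPM in summer and 260 to 336 CPM in winter, again with no overlap. The falls were not particular to these sets. Macrophage and myeloid markers were lower for 4 of 7 (57.1%). Satellite cell markers were lower for 3 of 4 (75%). That count went to 1 in DESeq2 with the bear in the fit, and without bear 1305, 1317, 1509, 1511 or 1512. Their summed level did not fall alike. It was 12.9 to 23.9 CPM in summer and 5.96 to 27.3 CPM in winter, and higher in winter in 4 bears. CDH15, the marker that did not pass, had a log2 fold change of 0.42 (adjusted p = 0.183). In bulk tissue, fewer cells of a type and less RNA per cell cannot be told apart, and the part of these cells in the change of APLN was not tested.

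BDNF encodes brain-derived neurotrophic factor, a growth factor of neurons that muscle also makes in small amounts. Reads ranged from 2 to 16 in summer (median 6) and from 1 to 72 in winter (median 7.5). Summer levels ran from 0.0878 through a median of 0.228 to 0.695 CPM, and winter levels from 0.0408 through 0.351 to 3.97 CPM. The highest winter value was that of bear 1509, and all other winter libraries lay at or below 0.423 CPM. Winter was higher in 3 bears and lower in 3. The log2 fold change was 0.68 (SE 0.83, 95% interval −1.15 to 2.51, adjusted p = 0.537), which did not pass.

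The winter library of bear 1509 held 72 of the 103 winter BDNF reads (69.9%), and its level was 45.2-fold that of the same bear in summer. Without bear 1509, 38 summer reads stood against 31 winter reads, and the log2 fold change was −0.26 (SE 0.54, adjusted p = 0.727). The 5 neuron markers in the table summed to 171 CPM in that library and to 0.429 to 1.62 CPM in the other 11. SNAP25, a protein of synaptic vesicle release, had 2464 reads there and 0 to 4 elsewhere. STMN2 had 312 reads against 0 to 3, NEFL 164 against 0 to 7, ELAVL4 122 against 1 to 14 and RBFOX3 45 against 0 to 16. The part of these nerve transcripts in the BDNF, FNDC5 and VGF reads of that library was not tested.

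**Figure D2:**
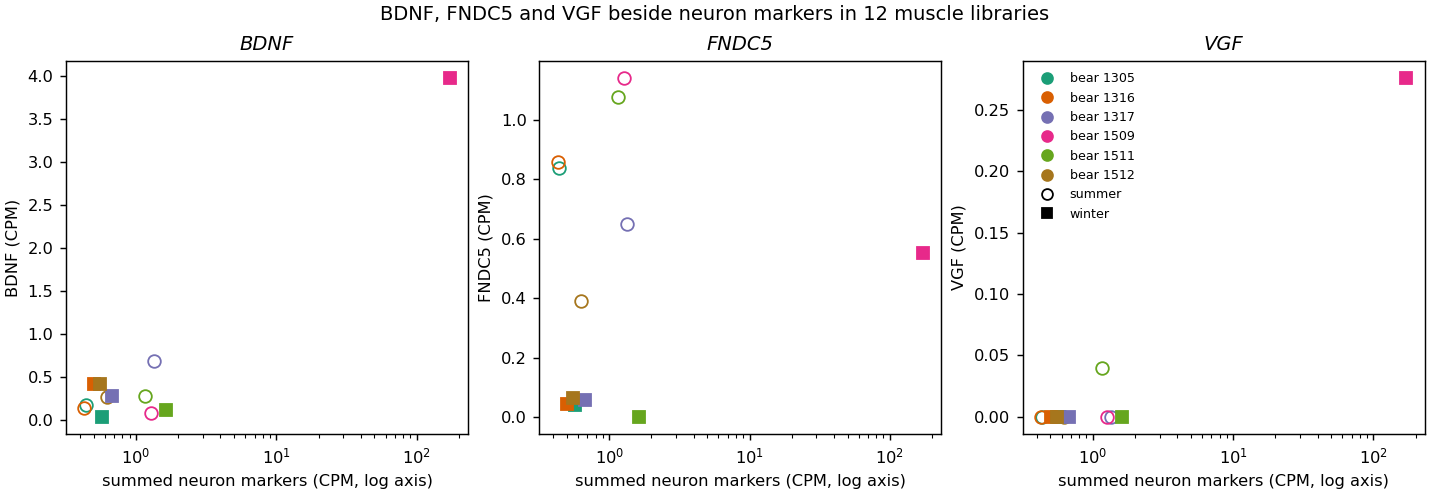
Summed CPM of the 5 neuron markers (horizontal axis, log scale) against the levels of BDNF, FNDC5 and VGF in CPM (vertical axes) in the 12 libraries, with open circles for summer, filled squares for winter and a colour per bear. The winter library of bear 1509 sits alone at 171 CPM of neuron markers, and the other 11 libraries lie between 0.429 and 1.62 CPM.

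OSTN encodes osteocrin, a secreted muscle and bone peptide that binds the natriuretic peptide clearance receptor. It had 14 reads in summer, in the libraries of bears 1316 (6 reads), 1511 (5), 1317 (2) and 1512 (1), and no read in any winter library. The other two summer libraries had no read either. Taken over each season without TMM scaling, the summer level was 0.0992 CPM. This was 4.49-fold the 0.0221 CPM that 3 reads over the winter group would give, with the 14 summer reads taken as exact. The winter to summer ratio of the pooled reads, 0, had a counting interval from 0 to 0.313, which takes the reads as independent. The exact two-sided sign-flip test over the 6 bears gave p = 0.125 (0.5 adjusted over the 4 transcripts tested this way). Its smallest possible p, with a difference in all 6 bears, would be 0.03125. OSTN had no read in either season in 2 bears, so 0.125 was the smallest p that its reads could give. None of the 4 transcripts differed in more than 4 bears, so this test could not have passed for any of them.

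GDF15 encodes a stress cytokine that acts on the brainstem to lower food intake. It had 1 read in summer, in bear 1316, and 7 in winter, with 3 in bear 1305, 2 in bear 1317 and 1 each in bears 1316 and 1512. The winter to summer ratio of the pooled reads, 7.28, had a counting interval from 0.935 to 328. The exact two-sided test gave p = 0.25 (adjusted 0.5). VGF encodes a neuropeptide precursor, and had 1 read in summer, in bear 1511, and 5 in winter, all in the library of bear 1509. Its pooled ratio of 5.20 had an interval from 0.582 to 246 (exact two-sided p = 1). That interval takes the 5 reads of a single library as independent. Without bear 1509, VGF had no winter read. FGF21, a fasting hormone of liver that stressed muscle can also make, had 1 read in each season, in bear 1511 in summer and bear 1316 in winter. A season difference of FGF21 was not detectable at this depth.

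**Figure D3:**
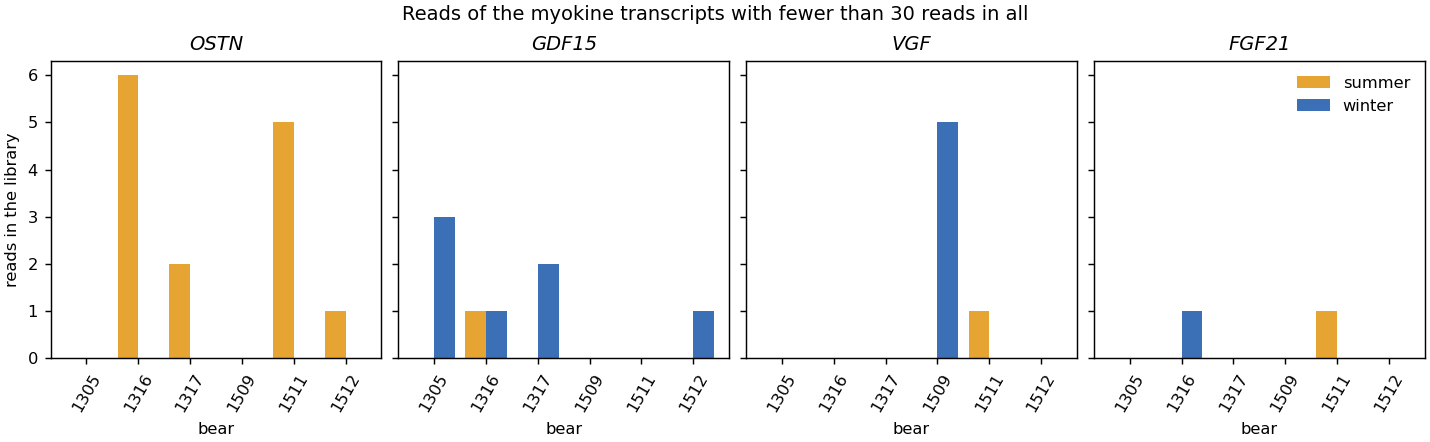
Reads of OSTN, GDF15, VGF and FGF21 (vertical axis, counts) in the summer and winter library of each bear. OSTN reads, at most 6 in a library, stand in summer libraries alone, and the 5 winter reads of VGF stand in the library of bear 1509.

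The receptors of these proteins were read from the same libraries, from a list of 19 genes. IL2RB was not matched by symbol, and GFRAL, the brainstem receptor of GDF15, had 1 read. Of the 17 tested, 9 were lower in winter and 8 did not pass. None was higher in edgeR's test, at an adjusted or an unadjusted p under 0.05, nor in DESeq2 or limma voom. Their median log2 fold change was −0.59, against −0.01 for all genes tested, of which 21.2% were lower. The list was chosen with earlier results of these data known, so these values describe the list only.

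**Figure D4:**
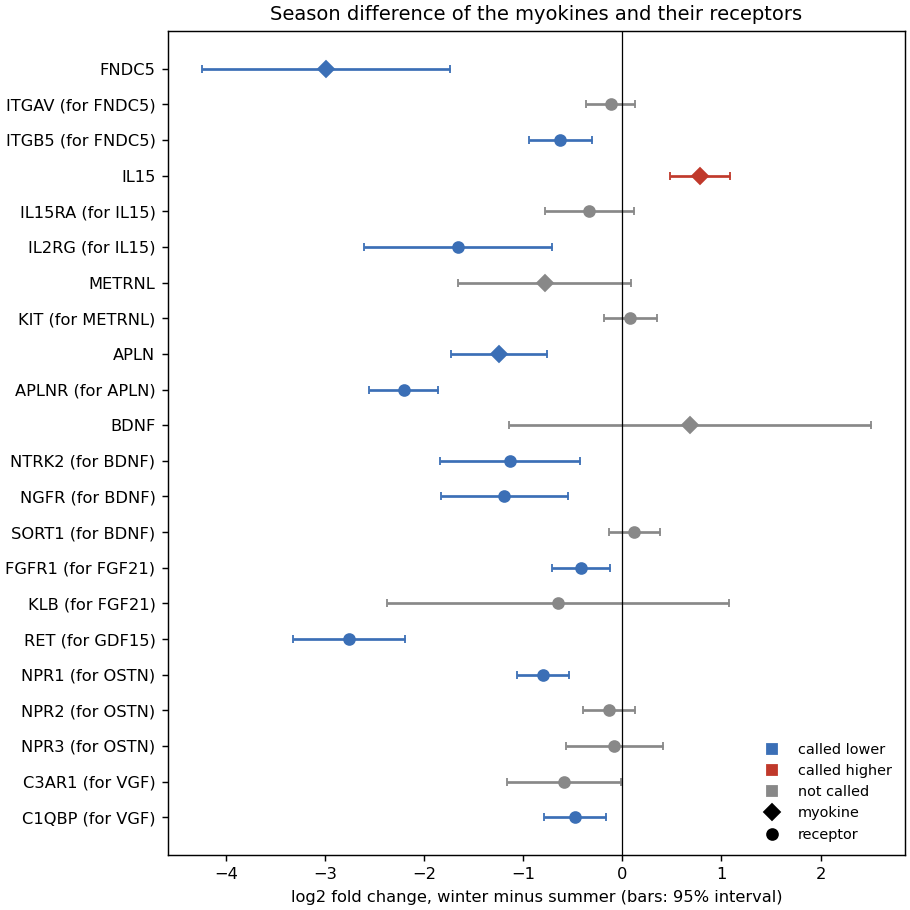
Log2 fold change, winter minus summer, of the 5 tested members and the 17 tested receptors and binding partners (horizontal axis), each with its unadjusted 95% interval from the edgeR fit on 6 bears, in blue where called lower, red where called higher and grey where not called. Among receptors, RET at −2.76 and APLNR at −2.21 lie farthest to the left, and no receptor that passed lies to the right of 0.

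APLNR, the receptor of apelin, is found on endothelial cells. Its level was 38.2 to 86.3 CPM in summer (median 59.1) and 8.69 to 21.0 CPM in winter (median 11.5). The seasons did not overlap, and winter was lower in 6 of 6 bears. Its log2 fold change was −2.21 (SE 0.16, adjusted p = 1.1e-05), so that APLN and its receptor were both lower in winter. The endothelial markers moved with it, at the summed levels given beside APLN, and their part was not tested.

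For FNDC5, 2 integrin subunits proposed as the irisin receptor were listed. ITGB5 fell by 0.63 on the log2 scale (SE 0.14, adjusted p = 0.00557), in 5 of 6 bears. ITGAV had a log2 fold change of −0.12 (SE 0.11, 95% interval −0.37 to 0.13, adjusted p = 0.415). Whether the subunits differ in their change was not tested.

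For IL15, the private receptor chain IL15RA had a log2 fold change of −0.33 (SE 0.20, 95% interval −0.78 to 0.11, adjusted p = 0.211). IL2RG, the shared gamma chain carried by lymphocytes, fell by 1.66 (SE 0.43, adjusted p = 0.0108), in 6 of 6 bears. Its level was 0.572 to 1.62 CPM in summer and 0.0602 to 0.776 CPM in winter, so the seasons overlapped. Lymphocyte markers summed to 2.51 to 4.38 CPM in summer and 1.43 to 2.65 CPM in winter, and 2 of 5 tested were lower, a count that went to 0 without bear 1316. Their part in the fall of IL2RG was not tested. The receptor tyrosine kinase KIT, which binds METRNL, had a log2 fold change of 0.08 (SE 0.12, 95% interval −0.19 to 0.35, adjusted p = 0.620).

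For BDNF, the low-affinity neurotrophin receptor NGFR fell by 1.19 on the log2 scale (SE 0.29, adjusted p = 0.00759), in 6 of 6 bears. NTRK2, its high-affinity receptor kinase, fell by 1.14 (SE 0.32, adjusted p = 0.0159), in 5 of 6 bears. That call was lost without the bear in the fit and without bear 1305 or bear 1512, with an adjusted p of up to 0.267. SORT1, the sorting receptor of proBDNF, had a log2 fold change of 0.12 (SE 0.12, adjusted p = 0.431).

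RET, the signalling kinase that GFRAL needs, was at 2.62 to 9.86 CPM in summer and 0.481 to 1.71 CPM in winter. The seasons did not overlap. Its log2 fold change was −2.76 (SE 0.26, adjusted p = 4.2e-05), lower in 6 of 6 bears. RET also serves receptors of other ligands, and the muscle held almost no GFRAL read. For FGF21, FGFR1 fell by 0.42 (SE 0.13, adjusted p = 0.0291), a call lost without the bear in the fit and without bear 1305, 1316, 1317 or 1512, with an adjusted p of up to 0.131. Its co-receptor KLB had a log2 fold change of −0.65 (SE 0.78, 95% interval −2.38 to 1.08, adjusted p = 0.534). The summer library of bear 1316, rich in adipocyte markers, held 149 of the 269 summer reads of KLB, at 7.11 CPM against 0.395 to 1.71 CPM in the other summer libraries. Without that bear the log2 fold change of KLB turned to 0.12 (SE 0.51, adjusted p = 0.874).

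Of the natriuretic peptide receptors, NPR3, the clearance receptor that osteocrin occupies, had a log2 fold change of −0.08 (SE 0.22, 95% interval −0.57 to 0.41, adjusted p = 0.795). NPR1, which makes cyclic GMP when bound, fell by 0.80 (SE 0.12, adjusted p = 0.000518), in 6 of 6 bears and without overlap of the seasons. NPR2 had −0.13 (SE 0.12, adjusted p = 0.379). Among proteins that bind a VGF peptide, C1QBP fell by 0.48 (SE 0.14, adjusted p = 0.0195), a call lost without bear 1316 (adjusted p = 0.0618). C3AR1 had −0.59 (SE 0.26, adjusted p = 0.0945).

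Regulators and processing enzymes of the members were read from a list of 24 genes, of which 23 were tested. In winter 6 were higher (26.1%) and 7 lower (30.4%), against 19.6% and 21.2% of all genes tested, and the median log2 fold change was −0.02. The largest falls were those of the activity-induced nuclear receptor NR4A3 at −2.52 (SE 0.30, adjusted p = 0.000139) and of the proprotein convertases PCSK5 at −1.81 (SE 0.21, adjusted p = 0.000120) and PCSK6 at −1.73 (SE 0.18, adjusted p = 6.4e-05), enzymes that cut precursors of secreted proteins. The lipid-sensing receptor PPARA fell by 1.04 (SE 0.16, adjusted p = 0.000617). NR4A1 had −1.16 (SE 0.41, adjusted p = 0.0445), a call lost without the bear in the fit, in limma voom and without bear 1305, 1316, 1509 or 1511.

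Higher in winter were the muscle transcription factors MEF2C, by 1.13 (SE 0.13, adjusted p = 0.000118), and MEF2A, by 0.92 (SE 0.13, adjusted p = 0.000438). The stress-response factors DDIT3 and ATF4, the latter an activator of FGF21 and GDF15, were higher by 0.87 (SE 0.21, adjusted p = 0.00750) and 0.60 (SE 0.11, adjusted p = 0.00132). PCSK2, a convertase of neurons, had no summer read, and 48 reads in the winter library of bear 1509. Its call (adjusted p = 0.00684) was lost in DESeq2, and without that bear it fell under the read filter. PPARGC1A, the coactivator that drives FNDC5 in exercised muscle, had a log2 fold change of −0.02 (adjusted p = 0.943).

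Of 27 other factors known to be released by muscle, 25 were in the table and 20 were tested. In winter 4 were higher (20%, against 19.6% of all genes tested) and 10 lower (50%, against 21.2%), and the median log2 fold change was −0.80. These factors too were listed with earlier results of these data known, so the shares are a description. SPARC, a matrix protein that fibroblasts also make, fell by 3.21 (SE 0.24, adjusted p = 1.2e-05), beside the fibroblast markers, whose part was not tested. It was joined by the follistatin-like protein FSTL1, which fell by 2.02 (SE 0.33, adjusted p = 0.000901). CHI3L1 fell by 1.86 (adjusted p = 0.00249), the vessel growth factor VEGFA by 1.20 (adjusted p = 5.0e-05) and myostatin, MSTN, which limits muscle growth, by 1.04 (adjusted p = 0.0102). ANGPTL4, an inhibitor of lipoprotein lipase that fasting raises, was higher by 3.48 (SE 0.54, adjusted p = 0.000660) and IGF2 by 2.42 (SE 0.23, adjusted p = 4.3e-05), each in 6 of 6 bears. The summer library of bear 1316 held 88 of the 190 summer reads of ANGPTL4. The call of ANGPTL4 held under the alternatives of the closing section, at 3.17 to 4.10. NAMPT was higher by 0.84 (adjusted p = 0.000142) and CNTF by 0.65 (adjusted p = 0.000673).

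Genes whose log2 CPM followed a member most closely over the 12 libraries are named as a description, since the libraries share bears and seasons. They are the highest of 10344 or 10345 genes compared per member, and picking the highest of so many by itself gives a high r. FNDC5 went with GGH (Pearson's r = 0.980, Spearman's rho = 0.965) and ABRACL (r = 0.966), and with the season means taken off with GGH (r = 0.937) and YWHAH (r = 0.929). Without bear 1509, the r with the season means taken off was 0.790 for GGH and 0.786 for YWHAH. IL15 went with ZNF507 (r = 0.966, rho = 0.937) and CREBRF (r = 0.953), and with the season means taken off with ZNF507 (r = 0.921) and ZSCAN31 (r = 0.903).

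For METRNL, OGFOD3 (r = 0.941) and SNX21 (r = 0.939) came closest, and with the season means taken off GSDMD (r = 0.963) and SNX21 (r = 0.950). For APLN, ITPRIPL2 (r = 0.914) and CAV2 (r = 0.912) came closest. Other genes did with the season means taken off, PITPNB (r = 0.904, rho = 0.895) and GPALPP1 (r = 0.901, rho = 0.720). For BDNF, KIF5A, a kinesin of neurons (r = 0.870, rho = 0.580), and RASA1 (r = 0.863, rho = 0.580) came closest, with r of 0.661 and 0.656 over the 10 libraries left without bear 1509. With the season means taken off, BDNF went instead with TRIM37 (r = 0.942) and SCN8A (r = 0.914), and without bear 1509 these were at 0.814 and 0.739.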

How the data were processed

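Stranded poly-A libraries of 12 biopsies were sequenced by the authors as single reads. Per the paper's methods and the labels, reads were aligned with TopHat2 2.1.1 to ASM358476v1 and counted per gene with featureCounts 1.6.2. The deposited values are raw counts, which the authors had not normalized in this table. Lanes are not assigned by the labels, so a lane effect was not tested.

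Season was tested with edgeR 4.0.16 in R 4.3.3 (quasi-likelihood test, glmQLFit and glmQLFTest) on genes with 30 or more reads over the 12 libraries, with TMM scaling and bear as a block. Benjamini-Hochberg adjustment ran over all 17290 genes tested, and a call was an adjusted p below 0.05. Transcripts under the filter had an exact test of all 64 sign flips of the within-bear CPM differences. The log2 CPM used a prior count of 2. Each bear gave both libraries. As a check of this pairing, the departure of a library from its season's mean correlated at 0.103 to 0.414 with that of the same bear's other library. Over the 30 pairs of different bears it ran from −0.275 to 0.187 (median −0.0745), so the pair of bear 1509, at 0.103, lay within that range. The fits were also run on simulated data in which 200 genes changed, all with a mean of at least 10 reads per library. Changes in transcripts with fewer reads were not covered, and no result here rests on that check.

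No library was left out. Libraries of the same season differed by more than counting noise, with a chi-square per gene of at least 42.3.

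All members and all receptors were named, and up to 5 called regulators and 5 other released factors in each direction by size of change, with the 2 most alike genes per member among those of at least 1 log2 CPM. The members and lists were chosen with earlier results of these data known. DESeq2 1.42.0 and limma voom (limma 3.58.1) were alternatives, with others in the closing section.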

Additional observations from a re-analysis of the deposited data

Results flagged for a closer look

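In each group of 6 libraries, the highest or lowest value was compared with its nearest neighbour over the range of the group. Of 89 groups examined, 9 had a library far from the others. Chance flags about 1 in 20 groups of continuous values. That rate does not hold for 5 of the 9, in FGF21, GDF15 and VGF, where a single library had reads and the other 5 were at 0, which is always flagged. FNDC5 in winter was at −0.6468 log2 CPM in bear 1509, against −3.525 to −2.718 in the other bears. VGF in winter was at 0.2759 CPM in bear 1509 and at 0 in all others. A single summer library held the 0.03991 CPM of FGF21 and the 0.03991 CPM of VGF, that of bear 1511, and 1 read set each. FGF21 in winter was at 0.042 CPM in bear 1316, and GDF15 in summer at 0.0477 CPM in bear 1316, again 1 read each. NPR2 in summer was at 5.218 log2 CPM in bear 1317 and at 4.455 to 4.668 in the others. MEF2C in summer was at 8.355 log2 CPM in bear 1305 and at 8.56 to 8.656 in the others, and ATF4 in summer at 8.579 in bear 1305 and at 7.792 to 8.079 in the others.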

How the results depend on the processing

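Under 14 alternatives (other tools and scalings, no filter, filterByExpr, no replicate block, and each bear left out), FNDC5, IL15 and APLN kept their direction and their call, at −3.88 to −2.69, 0.66 to 0.85 and −1.42 to −1.07 on the log2 scale. METRNL passed in none of them (adjusted p 0.0558 to 0.352). BDNF could not be fitted under filterByExpr, and passed in none of the others for which an adjusted p was given. With a bear left out it ran from −0.26, a reversal, without replicate 1509 to 1.20 without replicate 1317. The edgeR fit without the replicate block gave FNDC5 −2.73 and BDNF 1.62, and changed the call of no member. Called genes over the whole table numbered 2115 higher and 2325 lower at an adjusted p below 0.01 with fold limits of 1.3 and 0.77, against 3392 and 3663. FGF21, with 1 read a season, had a mean difference of 0.000348 CPM that turned to −0.000325 with library totals. The correlations of BDNF without bear 1509 were added after seeing the data. Depth limits FNDC5 and BDNF, with 3 reads or fewer in some libraries, and OSTN, GDF15, VGF and FGF21, which had 14 reads or fewer in all.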
